A study of Mus musculus with 12 samples.

Results

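The contactin-associated proteins are a small family of neurexin-related adhesion molecules, and 6 of their mouse genes (Cntnap1, Cntnap2, Cntnap4, Cntnap5a, Cntnap5b and Cntnap5c) were followed here in the main olfactory epithelium (MOE), the nasal sheet that houses the odour-sensing neurons. They were picked by name from the platform annotation, out of 19938 genes that had a probe set with a single symbol, and were measured by 7 probe sets because Cntnap5c had 2. The family was singled out because the signal of Cntnap5b was higher in these H2be-KO arrays, so the values of Cntnap5b between genotypes are a description and carry no test. The other 5 genes entered by their family name, but the list was made with earlier results of these data known. It left out a further family gene, Cntnap3, which is given below.

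Whole MOE tissue came from mice aged 6 months. In the H2be-KO line the coding sequence of H2be, which encodes a histone H2B variant of olfactory neurons, had been exchanged for that of a membrane-bound red fluorescent protein carrying the start of GAP43, and founders were bred to C57Bl/6 mice. WT mice kept the intact H2be gene. There were 6 arrays of each genotype, each with RNA from a pair of animals, and animals of both sexes were used in equal numbers.

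Each protein of this family is a single-pass membrane protein with a large extracellular part that resembles the neurexins. They pair with contactins, which are lipid-anchored adhesion molecules, and help to divide the axon membrane into domains or to organise synapses. Most of what is known comes from myelinated nerves and from the brain, whereas the axons of olfactory neurons have no myelin and run in bundles wrapped by ensheathing glia. CNTNAP1 forms the junctions between axon and myelin loops beside the node of Ranvier. CNTNAP2 holds potassium channels in the neighbouring stretch of the axon, and CNTNAP4 acts at synapses of inhibitory and dopaminergic neurons. Rodents carry several genes of the CNTNAP5 type, whose products are the least studied of the family.

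The arrays were alike in scale, with median signals of 7.84 to 7.90 (log2) and correlations of 0.951 to 0.985 over the 28151 probe sets tested. Omp, the marker of mature olfactory neurons, read 12.90 ± 0.07 in both genotypes (SD, n = 6 each), and the channel subunit gene Cnga2, which serves odour transduction, was at 12.20 ± 0.10 in H2be-KO against 12.11 ± 0.11 in WT. H2be itself, now named H2bc21, was at 11.65 ± 0.12 in H2be-KO against 11.89 ± 0.17 in WT (limma adjusted p = 0.753, exact permutation p = 0.0195), and whether its probes lie within the deleted coding sequence was not analysed here. A pair of H2be-KO arrays, replicates 1 and 6, stood apart by the enamel gene Amelx, which reached 11.9 and 11.7 there. The labels give no sex per array, but the mean of 3 Y-linked genes divided the arrays into 6 at 1.61 to 2.28 and 6 at 9.35 to 9.71, and each set held replicates 1 to 3 or replicates 4 to 6 of both genotypes. The Amelx arrays and the Y-linked split, which were examined as alternatives, are given below beside the members whose difference changed sign or call with them.

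The gene on which the family was picked, Cntnap5b, lies on chromosome 1. The sequence in front of it is shown because this is the member whose signal separated the genotypes. In RefSeq (GRCm38.p6) it lies on the plus strand, and a window from 250 bases before to 50 bases after the start listed there was examined. The window had 57.7% G and C, against a median of 52.7% over 32851 such windows of the mouse genome, and held 14 CG dinucleotides against a median of 7. It contained 2 matches to CCGCCC or its reverse complement GGGCGG, the core of a GC box, which 35.7% of all windows also contained. These stretches read as follows on the plus strand, with the match in capitals.
GC box 1, chr1:99772294-99772323: agcaaccaaggaCCGCCCagggcactctga
GC box 2, chr1:99772336-99772365: cttctaggcaggGGGCGGtgccgctcagaa
The first match ended 89 bases and the second 47 bases before the start. Neither strand of the window matched TATAAA (present in 13.6% of windows), CCCNNGGG, the core of the motif bound by the EBF factors of olfactory neurons (13.7%), or TGACG, the short form of the cyclic AMP response element (20.8%). These matches are descriptions of letters only. Promoter sequence was at hand for Cntnap5b and Cntnap2 among the 6 genes.

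Cntnap5b was the member with the largest difference between genotypes. In H2be-KO its log2 signal ran from 6.97 to 7.60 with a median of 7.31, and in WT from 6.57 to 6.94 with a median of 6.73. The lowest H2be-KO array thus lay just above the highest WT array, and the groups did not overlap. Of all probe sets tested, 0.0888% had every H2be-KO array above every WT array, and 0.0888% had every one below. As the gene was chosen on this contrast, nothing can be read from its place among them. The means were 7.28 ± 0.26 and 6.74 ± 0.13 (SD, n = 6 each), a difference of 0.54 with a standard error of 0.12, or 1.45-fold.

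The H2be-KO arrays were not uniform for this gene. Replicates 3 and 4 read 6.99 and 6.97, close to the highest WT array, replicate 6, at 6.94. Replicates 1, 2 and 5 read 7.49, 7.40 and 7.60, and replicate 6 lay between them at 7.21. Both arrays with high Amelx were therefore inside the range of the others, and without them the difference was 0.50. Among the arrays with low Y-linked signal, Cntnap5b read 7.30 ± 0.27 in H2be-KO and 6.65 ± 0.08 in WT (SD, n = 3 each), a difference of 0.64. Among those with high Y-linked signal it read 7.26 ± 0.32 and 6.82 ± 0.11 (SD, n = 3 each), a difference of 0.44. The interaction between genotype and Y-linked signal, which the choice of the gene did not use, was -0.20 with a standard error of 0.24 (limma adjusted p = 1).

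**Figure D1:**
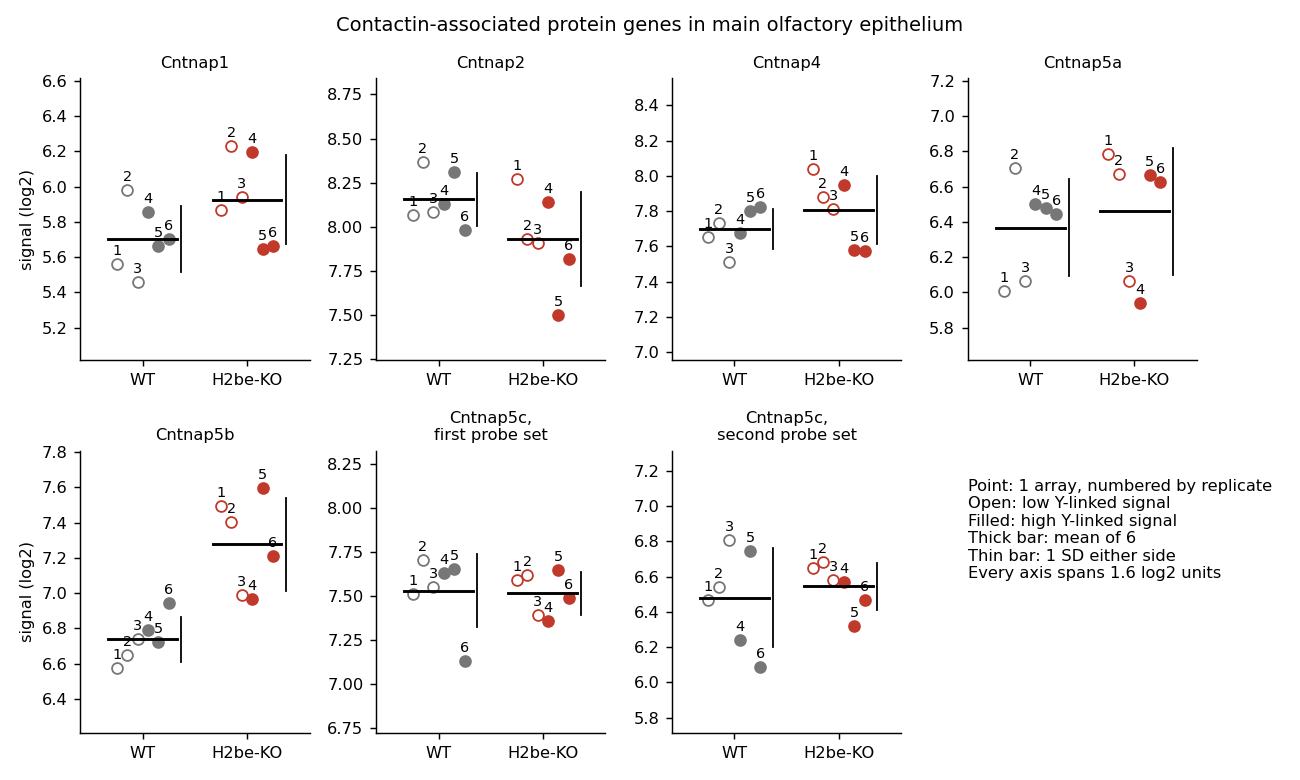
Signal (log2, vertical axis) of the 7 probe sets of the family in WT (grey) and H2be-KO (red), with 1 point per array numbered by replicate, open for low and filled for high Y-linked signal, thick bars for means and thin bars reaching 1 SD to either side. The 6 H2be-KO arrays of Cntnap5b sat between 6.97 and 7.60, above all WT arrays, while the genotypes overlapped for the other 6 probe sets.

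Cntnap5a, whose gene lies on the same chromosome with 26 protein-coding genes between it and Cntnap5b, did not separate the genotypes. In H2be-KO it ran from 5.94 to 6.79 with a median of 6.65, and in WT from 6.01 to 6.71 with a median of 6.46. The ranges covered each other almost completely, and in each genotype a pair of arrays lay well below the remaining 4, replicates 3 and 4 in H2be-KO and replicates 1 and 3 in WT. The difference was 0.09, with a 95% interval of -0.26 to 0.44 (limma adjusted p = 0.872). The sign was not stable, since the difference was -0.03 without the 2 arrays of high Amelx. It was 0.25 among the arrays of low and -0.06 among those of high Y-linked signal, with an interaction of -0.31 and a standard error of 0.34 (limma adjusted p = 1). The residual SD of Cntnap5a, 0.32, was larger than that of 89.1% of probe sets tested.

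Cntnap5c, on chromosome 17, was measured by 2 probe sets that gave small differences of opposite sign. The first, in the order of the platform's numbering, ran from 7.36 to 7.64 in H2be-KO with a median of 7.54, and from 7.13 to 7.70 in WT with a median of 7.59. The difference was -0.01 (95% interval -0.23 to 0.20, limma adjusted p = 0.972). For the second probe set the range was 6.32 to 6.68 in H2be-KO, around a median of 6.58, and 6.09 to 6.81 in WT, around a median of 6.50. Here the difference was 0.06 (95% interval -0.19 to 0.32, limma adjusted p = 0.877). In both probe sets all H2be-KO arrays fell inside the WT range, and the WT arrays were more widely spread.

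Cntnap1, on chromosome 11, was the member nearest to the lower limit of log2 5 set for testing. It ran from 5.65 to 6.23 in H2be-KO (median 5.90) and from 5.46 to 5.98 in WT (median 5.68). Only replicates 2 and 4 of H2be-KO exceeded every WT array. The means of 5.92 ± 0.25 and 5.70 ± 0.19 (SD, n = 6 each) differed by 0.22, with a standard error of 0.12, a 95% interval of -0.04 to 0.48 and a limma adjusted p of 0.753 (unadjusted 0.0902, exact permutation p = 0.123). Without the 2 arrays of high Amelx the difference was 0.30 and passed the unadjusted limma threshold, at an adjusted p of 0.848.

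Cntnap2, on chromosome 6, was the one gene of the 6 that was lower in H2be-KO by more than its standard error. It ran from 7.50 to 8.27 in H2be-KO, with a median of 7.92, and from 7.98 to 8.36 in WT, with a median of 8.11. In 4 of the 6 H2be-KO arrays it lay below every WT array, while replicates 1 and 4 were within the WT range. The means of 7.93 ± 0.27 and 8.15 ± 0.15 (SD, n = 6 each) differed by -0.23, with a standard error of 0.12, a 95% interval of -0.48 to 0.03 and a limma adjusted p of 0.753 (unadjusted 0.0778, exact permutation p = 0.0952). Without the 2 arrays of high Amelx the difference was -0.28 and passed the unadjusted limma threshold, at an adjusted p of 0.848. The H2be-KO array with the highest Cntnap5b, replicate 5, had the lowest Cntnap2.

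Cntnap4, on chromosome 8, differed between genotypes by 0.11 (95% interval -0.10 to 0.31, limma adjusted p = 0.772). It ran from 7.58 to 8.04 in H2be-KO (median 7.85) and from 7.51 to 7.82 in WT (median 7.70), and 3 H2be-KO arrays exceeded every WT array. Those with low Y-linked signal read 7.91 ± 0.12 in H2be-KO against 7.63 ± 0.11 in WT (SD, n = 3 each), a difference of 0.28 that passed the unadjusted limma threshold at an adjusted p of 0.957. With high Y-linked signal the values were 7.70 ± 0.21 and 7.77 ± 0.08 (SD, n = 3 each), a difference of -0.07. The interaction of -0.35, with a standard error of 0.19, did not pass its test (limma adjusted p = 1). No member had an interaction with p under 0.05, a level that 1.35% of probe sets reached. Averaged over genotypes, the 7 probe sets differed between arrays of high and low Y-linked signal by -0.21 to 0.06, with limma adjusted p of 0.875 or more, and 5.88% of probe sets passed the unadjusted threshold in that comparison against 0 of the 7.

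Between genotypes, 1 of the 7 probe sets passed an unadjusted limma p of 0.05, and this was Cntnap5b, for which nothing can be read from the count. The background was 1563 of 28151 probe sets, or 5.55%, in either direction. At an adjusted p under 0.05 the count was 0 of 7, as it was for all probe sets. Of the 6 probe sets of the other genes, 4 were higher in H2be-KO and 2 lower, with differences of -0.23 to 0.22 and a median of 0.08. Over all probe sets tested the median was 0.02 and 56.2% were positive. Tissue was measured whole, so that fewer cells of a type and less RNA per cell cannot be told apart.

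The mouse family has a further gene, Cntnap3 on chromosome 13, which was outside the 6 chosen. Its 6 probe sets disagreed in size and sign, with differences of -0.53 to 0.07. The lowest of these went from 8.20 ± 0.41 in WT to 7.67 ± 0.59 in H2be-KO (SD, n = 6 each, limma adjusted p = 0.753, unadjusted 0.0506, exact permutation p = 0.0974). In the others the difference stayed within -0.32 to 0.07.

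Array-to-array variation inside each genotype, which does not depend on the difference that singled out Cntnap5b, was compared next. Deviations from the genotype means were taken for Cntnap5b and set against those of the other 6 probe sets and of 11 cell type marker scores, which gave 17 relations over 12 arrays. The closest was that with Cntnap5a (Pearson r = 0.72, permutation p = 0.0224, adjusted p = 0.381; Spearman rho = 0.59, permutation p = 0.0873, adjusted p = 0.742). H2be-KO replicates 3 and 4 were the lowest of their genotype for Cntnap5a, Cntnap5b and the first probe set of Cntnap5c alike. In WT these genes did not run together in that way. Taken within a genotype, as descriptions over 6 arrays each, r with Cntnap5b was 0.90 in H2be-KO and 0.29 in WT for Cntnap5a. For the first probe set of Cntnap5c it was 0.98 and -0.69. Over all 12 arrays that r was 0.19, and it was 0.65 without the 2 arrays farthest from the median of the probe set. The WT value included replicate 6, which had the lowest signal of this probe set in WT, 7.13, and the highest of Cntnap5b, 6.94. Without the 2 arrays farthest from the median of Cntnap5a, r was 0.45, so the relation rested on those arrays. The immature neuron score followed (r = 0.61, permutation p = 0.0468, adjusted p = 0.398; rho = 0.57, permutation p = 0.0809, adjusted p = 0.742), with an r of 0.66 without the 2 farthest arrays, and of 0.89 within H2be-KO and 0.03 within WT. Over all 17 relations, r within H2be-KO ran from -0.70 for the sustentacular score to 0.98 for the first probe set of Cntnap5c. Within WT it ran from -0.82 for the macrophage score to 0.81 for the endothelium score. Whether r differed between the genotypes was not tested. For Cntnap2 the relation was negative (r = -0.36, permutation p = 0.391, adjusted p = 0.819; rho = -0.29, permutation p = 0.42, adjusted p = 0.79) and r was -0.44 without the 2 farthest arrays. None of the 17 passed after adjustment.

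**Figure D2:**
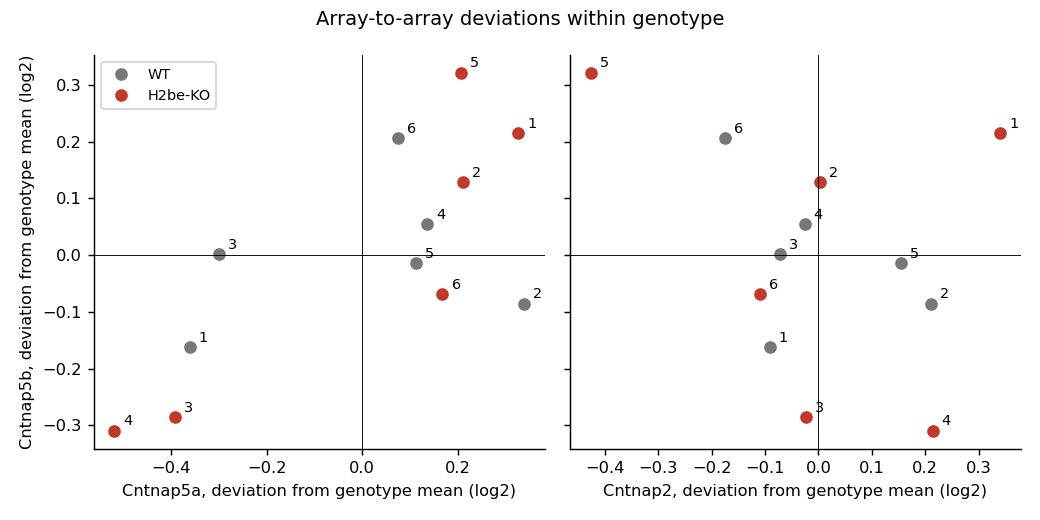
Deviation of Cntnap5b from its genotype mean (log2, vertical axis) against that of Cntnap5a (left) and Cntnap2 (right), with 1 point per array numbered by replicate, for WT (grey) and H2be-KO (red). H2be-KO replicates 3 and 4 sat lowest for Cntnap5a and Cntnap5b together (r = 0.72 over 12 arrays, 0.45 without the 2 farthest), whereas Cntnap2 showed no such order (r = -0.36).

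By the same measure, the named probe sets whose deviations most resembled those of Cntnap5b were those of Zfp438, a zinc finger gene (r = 0.91 over 12 arrays), Mks1, a gene of the ciliary transition zone (0.86), and Anxa9, an annexin (0.85). These are the top 3 of 21439 probe sets with a single symbol, given as a description. Zfp438 read 6.95 ± 0.24 in H2be-KO and 6.62 ± 0.18 in WT (SD, n = 6 each, limma adjusted p = 0.753). Its unadjusted limma p was 0.0129 and its exact permutation p 0.0216. It thus passed the unadjusted threshold, as 5.55% of all probe sets did. Mks1 and Anxa9 differed between genotypes by 0.12 and -0.04.

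For the measured genes nearest to Cntnap5b on the chromosome the genotypes overlapped. On the one side, Slco6d1, an organic anion transporter gene, read 5.30 ± 0.38 in H2be-KO and 5.21 ± 0.25 in WT (SD, n = 6 each, difference 0.09, limma adjusted p = 0.878). On the other, Cdh20, a cadherin gene, read 7.89 ± 0.09 and 7.77 ± 0.31 (SD, n = 6 each, difference 0.13, limma adjusted p = 0.787). In RefSeq order 5 genes of any kind lay between the former and Cntnap5b, and 24 between Cntnap5b and the latter. Slco6d1, with a mean of 5.25 over all arrays, was close to the lower limit of log2 5 set for testing.

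The partners of these proteins were examined in 4 lists, with 51 of 54 genes measured by 52 probe sets. At an unadjusted limma p under 0.05, 0 were higher and 1 was lower in H2be-KO, where 3.78% and 1.77% of all probe sets were, and 0 passed after adjustment. The median difference over the 52 was 0.00.

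The contactins are the direct binding partners. Of 6 contactin genes none passed the threshold, with differences of -0.15 to 0.29. Cntn1, the partner of CNTNAP1 at the axon-glia junction, ran from 6.61 to 7.57 in H2be-KO (median 7.00) and from 6.41 to 6.94 in WT (median 6.73). In 4 H2be-KO arrays Cntn1 exceeded every WT array, yet the difference of 0.29 had a standard error of 0.16 (limma adjusted p = 0.753, exact permutation p = 0.139). Cntn3 differed by 0.24 with a wide spread, at 7.38 ± 0.24 in H2be-KO and 7.15 ± 0.38 in WT (SD, n = 6 each, limma adjusted p = 0.753). Cntn4, a contactin of olfactory sensory axons, read 11.66 ± 0.12 in H2be-KO and 11.56 ± 0.14 in WT (SD, n = 6 each, limma adjusted p = 0.775), and was named beyond the rule because of its known place in this tissue. For Cntn2, which joins CNTNAP2 beside potassium channels, the values were 7.66 ± 0.18 and 7.77 ± 0.24 (SD, n = 6 each, limma adjusted p = 0.792), and it too was named beyond the rule.

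L1-type adhesion molecules and the scaffolds that tie the family to the cytoskeleton came next. None of 18 probe sets passed, with differences of -0.21 to 0.16. The smallest p of these belonged to Epb41l1, a cytoskeletal linker gene, with 10.10 ± 0.13 in H2be-KO against 10.25 ± 0.14 in WT (SD, n = 6 each, limma adjusted p = 0.753, exact permutation p = 0.0758). The adhesion gene Chl1 read 5.23 ± 0.28 and 5.44 ± 0.22 (SD, n = 6 each, limma adjusted p = 0.753).

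The potassium channels that CNTNAP2 holds in place, with the LGI and ADAM proteins bound to them, held the single call. Lgi3, a secreted protein of the LGI family, ran from 6.40 to 6.94 in H2be-KO, with a median of 6.57, and from 6.70 to 7.03 in WT, with a median of 6.79. In 5 of 6 H2be-KO arrays it lay below every WT array. The difference of -0.22 (standard error 0.10) had an unadjusted limma p of 0.039 and an adjusted p of 0.753 (exact permutation p = 0.039). It was also the call that depended on single arrays, being lost when any of 8 of the 12 arrays was left out, with p of up to 0.0892 and differences of -0.28 to -0.17 over all 12 omissions. The other 12 probe sets of this list did not pass. Among them, and named beyond the rule, were both probe sets of Kcna2, a channel subunit clustered by CNTNAP2, with differences of 0.08 and -0.03, and Lgi4, a ligand made by glia, at 7.44 ± 0.22 in H2be-KO and 7.22 ± 0.42 in WT (SD, n = 6 each, limma adjusted p = 0.758).

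Neurexins, the synaptic relatives of the family, and their ligands gave 0 calls among 15 probe sets, with differences of -0.21 to 0.11. Cbln1, a secreted ligand of neurexins, read 6.85 ± 0.17 in H2be-KO and 7.07 ± 0.22 in WT (SD, n = 6 each, limma adjusted p = 0.753, exact permutation p = 0.0996). Lrrtm2, a postsynaptic ligand, read 6.98 ± 0.23 and 7.18 ± 0.30 (SD, n = 6 each, limma adjusted p = 0.754).

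**Figure D3:**
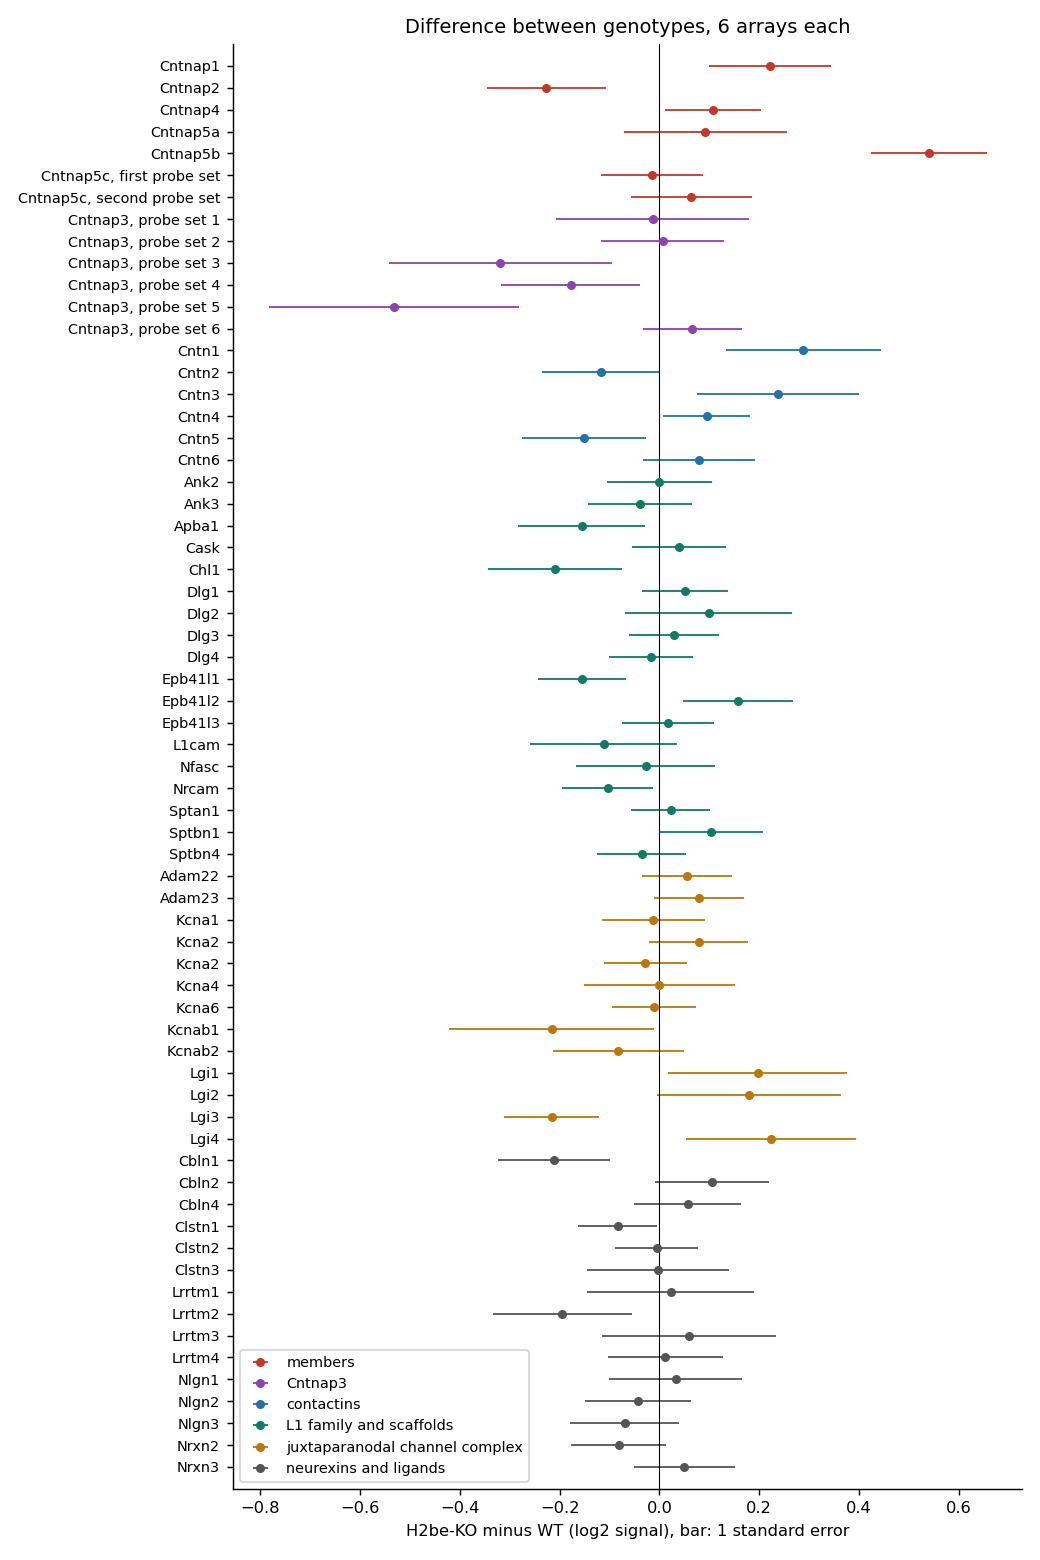
Difference of H2be-KO minus WT (log2, horizontal axis) with 1 standard error for the 7 probe sets of the family, the 6 of Cntnap3 and the 52 of the partner lists, coloured by list. Cntnap5b stood at 0.54, the gene being chosen for this value, and the partners lay between -0.22 and 0.29.

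Markers of the cells that could carry these transcripts are given as levels beside the result for Cntnap5b, and their part in it was not tested. The mean signal of 8 mature neuron markers ran from 11.79 to 12.01 in H2be-KO and from 11.85 to 11.94 in WT, with 0 called. For 6 immature neuron markers it ran from 9.67 to 10.07 and from 9.62 to 9.95. Their differences ran from -0.09 to 0.25, with 4 of the 6 positive and a median of 0.12. The 1 called there was Gap43, at 10.24 ± 0.20 against 9.99 ± 0.17 (SD, n = 6 each, limma adjusted p = 0.753, exact permutation p = 0.0455), a gene whose first codons are part of the H2be-KO allele. Ensheathing glia markers, 6 of 7 measured, ran from 8.10 to 8.52 and from 8.12 to 8.44, with 1 called higher, Fabp7, at 10.67 ± 0.12 against 10.44 ± 0.18 (SD, n = 6 each, limma adjusted p = 0.753, exact permutation p = 0.0303). The differences of these 6 glia markers ran from -0.17 to 0.22, with 4 positive and a median of 0.08. Schwann cell markers, 4 of 6 measured, ran from 7.69 to 8.08 and from 7.71 to 8.12 with 0 called. The 10 markers of olfactory bulb and forebrain neurons, tissue that could adhere to a dissected epithelium, ran from 7.72 to 7.95 and from 7.62 to 8.03 with 0 called. Of the remaining lists, horizontal basal cells had 1 of 5 markers called, Itgb4 being lower in H2be-KO, while 0 were called of 4 for sustentacular cells, 5 for macrophages, 4 for endothelium, 5 for bone, cartilage and tooth, and 1 for erythroid cells. All 5 horizontal basal cell markers had negative differences, with a median of -0.13. All 4 sustentacular cell markers measured, of 5 listed, had positive ones, from 0.0009 to 0.15 with a median of 0.10. Over all probe sets 56.2% were positive. In all, 3 of 58 marker probe sets were called, or 5.17%, against the 5.55% of all probe sets. The H2be-KO and WT ranges of all 11 scores overlapped.

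How far each difference depended on the handling of the data was examined for all 7 probe sets. For Cntnap5b the difference stayed between 0.48 and 0.60 with any single array left out and between 0.44 and 0.64 under the other alternatives, the extremes being the sets of low and high Y-linked signal. As its groups did not overlap, leaving out arrays could not change the sign. The gene was chosen on this difference, so its stability carries no test. The differences of Cntnap1 and Cntnap2 kept their sign in every alternative that gave a value. Those of Cntnap4, Cntnap5a and both probe sets of Cntnap5c changed sign in at least 1.

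**Figure D4:**
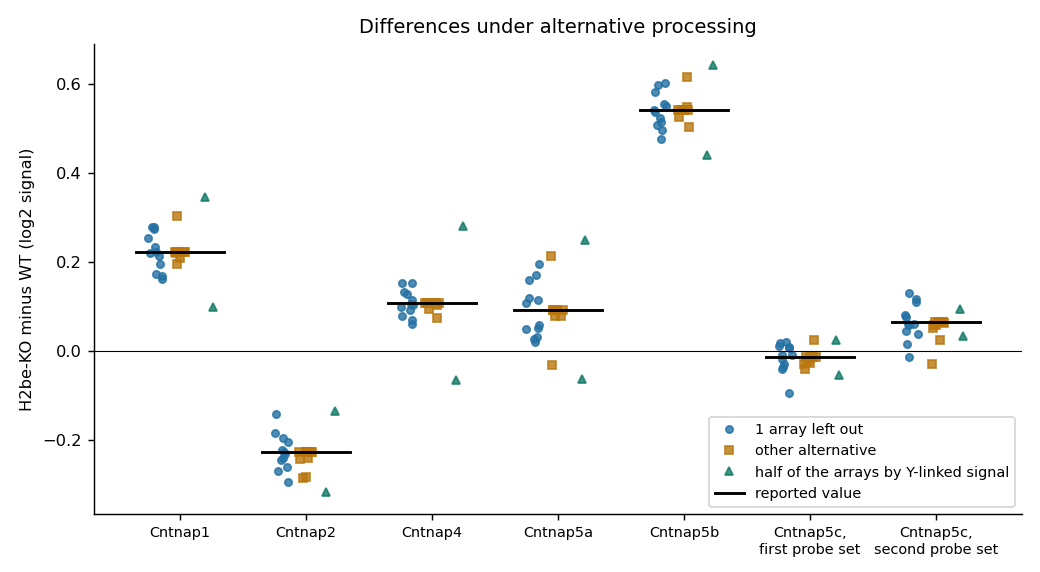
Difference of H2be-KO minus WT (log2, vertical axis) of each probe set of the family as reported (black bar), with 1 array left out (blue circles), under other alternatives (orange squares) and within the arrays of low or high Y-linked signal (green triangles). Cntnap5b, chosen for its difference, remained between 0.44 and 0.64, and leaving out arrays could not change its sign. The differences of Cntnap4, Cntnap5a and Cntnap5c crossed 0.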

How the data were processed

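MOE RNA was measured on arrays of the Affymetrix type Mouse Gene 1.0 ST. Per the study's methods, the authors summarised probes with IterPLIER and applied sketch-quantile normalization in Affymetrix Expression Console, which gave the deposited table of log2 values, with 1 signal for each probe set on each array. A shift shared by most transcripts would have been removed there. For tool versions and the build of the array annotation, the entry is: not given in the sources used here. Arrays hold no count of molecules, so their number limits the precision, with a median standard error of 0.112 for a log2 difference.

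Groups came from the sample titles, and arrays were taken as separate pools of animals. Equal values were rare between any 2 arrays, at most 0.0071% of probe sets, so none was a copy. Symbols were taken from the platform annotation, updated through RefSeq gene identifiers. Of 28944 experimental probe sets 21789 had 1 symbol, 1621 several and 5534 none, and genes were named only from the first kind. The 6612 control probe sets, recognised by platform numbering, were left out. Promoter windows came from RefSeq on GRCm38.p6.

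All probe sets whose mean over the arrays exceeded log2 5 were fitted with genotype as the only term (R 4.3.3, limma 3.58.1, lmFit and eBayes), with Benjamini-Hochberg adjustment over all 28151. Intervals are limma's. Exact permutation tests over all choices of 6 of the 12 arrays and all other tests were two-sided, and relations within genotype used 100000 permutations. The fit was tested on simulated data. The partner and marker lists, the members and the tests were chosen with earlier results of these data known. Named genes were the members, each partner gene at p under 0.05 or otherwise the 2 with the smallest p per list, the 3 most similar probe sets, the nearest measured neighbours, Cntnap3, H2bc21, Omp and Cnga2. Cntn2, Cntn4, Kcna2, Lgi4 and the markers Gap43, Fabp7, Itgb4 and Amelx fall outside this rule and were chosen after their values were seen. The split by Y-linked signal was added after seeing the data, at a log2 signal of 5 for the mean of 3 of 4 listed genes.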

Additional observations from a re-analysis of the deposited data

Results flagged for a closer look

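In the first probe set of Cntnap5c, WT replicate 6 read 7.13 while the other WT arrays read 7.51 to 7.70, and this gap was 0.664 of the group's range. In Lgi4, H2be-KO replicate 4 read 7.02 while the other H2be-KO arrays read 7.41 to 7.62, a gap of 0.656 of the range. Both exceeded Dixon's 95% critical value for a lone array, as 2 of 30 groups checked did, where chance gives about 1 in 20.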

How the results depend on the processing

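Members and partners that had no call at an unadjusted limma p under 0.05 gained one under some alternatives. Cntnap1 was called with the replicate block (0.22), without the 2 H2be-KO arrays of high Amelx signal (0.30), without replicate 5 (0.28) or 6 (0.27) of H2be-KO, and without replicate 2 of WT (0.28), in a range of 0.16 to 0.28 over single omissions. Cntnap2 was called with array weights (-0.29), without the 2 arrays of high Amelx signal (-0.28), and without H2be-KO replicate 1 (-0.29) or replicate 4 (-0.27), in a range of -0.29 to -0.14. Cntnap4 was called in the arrays of low Y-linked signal (0.28) and changed sign in those of high (-0.066), a split chosen after seeing the data. Uncalled differences changed sign for Cntnap5a without the arrays of high Amelx signal (-0.032) and with high Y-linked signal (-0.064), for the first probe set of Cntnap5c when averaged by symbol (0.025), with high Y-linked signal (0.024) and over single omissions (-0.094 to 0.020), and for the second with array weights (-0.030) and over single omissions (-0.014 to 0.13). The count of called members, 1 as reported, was 2 with the replicate block, with array weights and with low Y-linked signal, 3 without the arrays of high Amelx signal, and 1 to 2 over single omissions. The count of called partners, 1 as reported, was 2 after quantile normalization and with the replicate block, 4 with array weights (Cntn1, Cntn5, Cbln1 and Lrrtm2, without Lgi3), 0 with trend and robust moderation, without the arrays of high Amelx signal and with high Y-linked signal, and 0 to 2 over single omissions. Every count of called members includes Cntnap5b, for which nothing can be read from the count. Counts over all probe sets under the same settings are given next. The cause of the changes in calls, counts and signs was not tested.

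Over all probe sets 1065 were higher and 498 lower as reported, against 825 and 900 after quantile normalization, 815 and 699 after median centring, 2039 and 951 with the replicate block, and 2694 and 1405 with array weights, while no adjusted p fell under 0.05 in any of these. With trend and robust moderation 1206 were higher and 443 lower, and without the arrays of high Amelx signal 727 and 446. The arrays of low Y-linked signal gave 696 and 334, and those of high gave 317 and 273. Single omissions gave 513 to 2265 higher and 312 to 1554 lower. In these settings too no adjusted p fell under 0.05. Cntnap1 gave no value at a minimum mean of log2 6, being below it. The genotypes share replicate numbers in the labels, with no statement that a number marks a shared source. Deviations of same-numbered arrays correlated positively in all 6 pairs, at 0.025 to 0.592, but 2 pairs, at 0.025 and 0.090, were under the 0.1 required of every pair here, so the numbers were not taken as a pairing. Not every array correlated best with its own number (8 of 12 did, each having 6 arrays of the other genotype to match), a hint from the data and not the design. Arrays of the same number also fell in the same set by Y-linked signal, which was not removed from these deviations. Its part in the correlations was not tested. The replicate block left Cntnap5b at 0.54 and changed the call of no other member than Cntnap1.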
